A study of Mus musculus with 21 samples.

Results

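Interferon-stimulated genes are the genes that a cell switches on after it senses type I interferon. The 38 examined here were named by what they are known for, namely induction by type I interferon, and all 38 were found by gene symbol among the 56953 genes of the count files. They were followed through RNA libraries of sorted mouse peritoneal B cells to ask whether loss of TET2 or the B cell subset goes with the basal level of these genes, often called interferon tone. Type I interferon binds a receptor whose kinases activate transcription factors, STAT2 among them. Together with IRF9 these form a complex, ISGF3, that binds a promoter element called the interferon-stimulated response element (ISRE). The genes so induced include sensors and effectors of antiviral defence (the Oas, Ifit, Mx and Gbp families), transcription factors that carry the response further (Irf7, Irf9, Stat2) and brakes on it (Usp18), and many of them also respond to interferon gamma. TET2 is an enzyme that oxidises methylated cytosine in DNA.

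The mice were C57BL/6, either wildtype (WT) or with a global knockout of TET2 (TET2-KO) made by deleting exons that encode the catalytic region, and no treatment was given. They are described as young, and an exact age is not given in the sources used here. B-1a cells (CD5+), B-1b cells (CD5-) and B-2 cells were sorted from peritoneal fluid, and the 21 libraries comprised 4 WT and 4 TET2-KO of B-1a, 4 WT and 3 TET2-KO of B-1b, and 2 WT and 4 TET2-KO of B-2 cells. Each library carries a replicate number from 1 to 4. Libraries of different subsets share numbers, but no label states that a number is a mouse, so p-values measure the spread between libraries only. The knockout is global, so every cell of the animal lacked the enzyme's catalytic region and B cells were not the sole cells affected.

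Between 9667187 and 24152518 fragments (median 17425219) were counted per library, and no pair of libraries was identical. Levels are given in CPM, that is, counts for every 1000000 of the library's total after TMM scaling, which corrects for differences in library composition. Tet2 stood at 8.48 to 27.0 CPM in WT and at 12.8 to 33.4 CPM in TET2-KO libraries. These counts cover the whole gene, exons outside the deletion included, and are no check of the deletion. In 5 libraries, all labelled WT 1 or WT 2, subset markers stood apart from the labels. Fcer2a, which encodes the follicular B cell marker CD23, was at 817 CPM in the library labelled WT B-1a 1 and at 597 CPM in that labelled WT B-1b 2, against 4.5 to 70.3 CPM in the other B-1 libraries. It was at 24.2 CPM in the library labelled WT B-2 1, against 533 to 846 CPM in the other B-2 libraries. Cd5 was at 5.16 and 1.63 CPM in the libraries labelled WT B-1a 1 and 2, against 15.7 to 22.6 CPM in the other B-1a libraries. In that labelled WT B-1b 1 it was at 17.9 CPM, against 2.07 to 4.91 CPM in the other B-1b libraries. The same 5 libraries had 18074 to 19255 genes with a count, against 25898 to 29339 in the other WT libraries. Of the TET2-KO libraries only B-1b 3 (17816) and B-1a 4 (18941) were as low. The level of chemoreceptor genes was 10.28 to 19.98 CPM in these 5. It was 213.8 to 675.4 CPM in the other WT and 118.1 to 2993.6 CPM in the TET2-KO libraries. Genotype comparisons that include the 5 also compare libraries that differ in this way, and the cause was not tested. The labels were kept. Counts of calls, median fold changes and the fold changes of named genes that rest on these libraries are given with and without them, whereas WT scores and shares of spread include them. A library with fewer transcripts of a gene can hold fewer cells that make it or less of it in each cell, and bulk RNA cannot tell these apart.

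The RefSeq promoter table (GRCm38.p6; 250 bases before to 50 bases after each start site) held 30 of the 38 genes. It has no entry for Oas2, Mx1, Mx2, Usp18, Rtp4, Dhx58, Zbp1 and Parp14. The ISRE core searched was GAAA, any 2 bases and again GAAA, on either strand and with overlapping matches counted, and it was present in 17 of 30 genes (56.7%, exact 95% binomial interval 37.4 to 74.5). Of all 27025 genes with a promoter there, 3.99% held it. A list of other interferon-induced genes held it in 35 of 82 (42.7%). The shorter GAAA, any 2 bases, GAA, which every core contains, was in 63.3% of the 30 genes and 9.76% of all genes. The genes were listed because interferon induces them, so the share describes the list. A match is a run of letters, not a measured binding site.

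The windows below, 50 bases each, are shown for some of the genes that the results turn on and that hold a core, and for Isg15, a ubiquitin-like modifier. Irf7, Irf9, Ifi209, Oasl2 and Xaf1 have a promoter in the table but no core in it, so none is shown for them. The windows read 5′ to 3′ on the strand of the gene, with the core in capitals. TTTC, any 2 bases, TTTC is the core on the other strand.
Ifit3, chr19:34583353-34583402, plus strand, core from base -156: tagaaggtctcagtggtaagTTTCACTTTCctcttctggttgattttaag
Gbp2, chr3:142620584-142620633, plus strand, core from base -59: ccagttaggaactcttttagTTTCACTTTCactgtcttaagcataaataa
Gbp7, chr3:142530263-142530312, plus strand, core from base -53: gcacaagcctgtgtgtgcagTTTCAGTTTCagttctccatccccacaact
Ifi206, chr1:173491329-173491378, minus strand, core from base -40: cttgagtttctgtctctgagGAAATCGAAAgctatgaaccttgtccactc
Ifi213, chr1:173599316-173599365, minus strand, core from base -73: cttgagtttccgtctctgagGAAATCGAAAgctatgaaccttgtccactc
Ifi203, chr1:173942498-173942547, minus strand, core from base -35: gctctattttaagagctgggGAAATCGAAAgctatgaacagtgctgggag
Oas1a, chr5:120907510-120907559, minus strand, core from base -14: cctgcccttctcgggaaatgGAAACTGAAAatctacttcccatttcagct
Isg15, chr4:156200855-156200904, minus strand, core from base -66: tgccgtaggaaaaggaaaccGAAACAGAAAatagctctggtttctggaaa

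The 3 HIN-200 genes shown (Ifi206, Ifi213 and Ifi203) carried the same letters, GAAATCGAAA, and Ifit3 and Gbp2 shared TTTCACTTTC. Ifit3 held a second core from base -122, Oas1a a second from base -20 that overlaps the one in capitals, and Isg15 held 3 overlapping cores. In each window 1 core is in capitals. Over all genes of the list there were 26 cores, from base -222 to base 33 with a median of -72.5, and 24 of them lay upstream of the start site.

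All 38 genes were transcribed above 1 CPM on average, but at very unequal levels. Scaled by exon length, as CPM per kilobase of exon (RPKM, mean over 21 libraries), the highest were Bst2, whose product tethers budding virions (91.9 RPKM), Ifi209 (68.7 RPKM), Ifi35 (51.2 RPKM), Gbp3 (36.0 RPKM) and Ifi203 (31.2 RPKM). The lowest were Ifi44 (0.216 RPKM), Mx2 (0.310 RPKM), Ifih1, which encodes the RNA sensor MDA5 (0.386 RPKM), and Oas2 (0.434 RPKM). The abundant genes were thus mainly guanylate-binding proteins, HIN-200 genes and Bst2, and the classical antiviral effectors Ifit1 (1.36 RPKM), Rsad2 (0.610 RPKM) and Mx1 (0.796 RPKM) were near the bottom. The first neighbours in this order overlapped over libraries, with Bst2 spanning 43.3 to 141 RPKM and Ifi209 29.0 to 120.2 RPKM. Usp18, Oas2, Rsad2 and Ifit3b had no count in the library TET2-KO B-1b 3, where 3 counts, the most that a count of 0 allows, equal 0.201 CPM, and Ifi44 had none in 3 libraries.

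**Figure D1:**
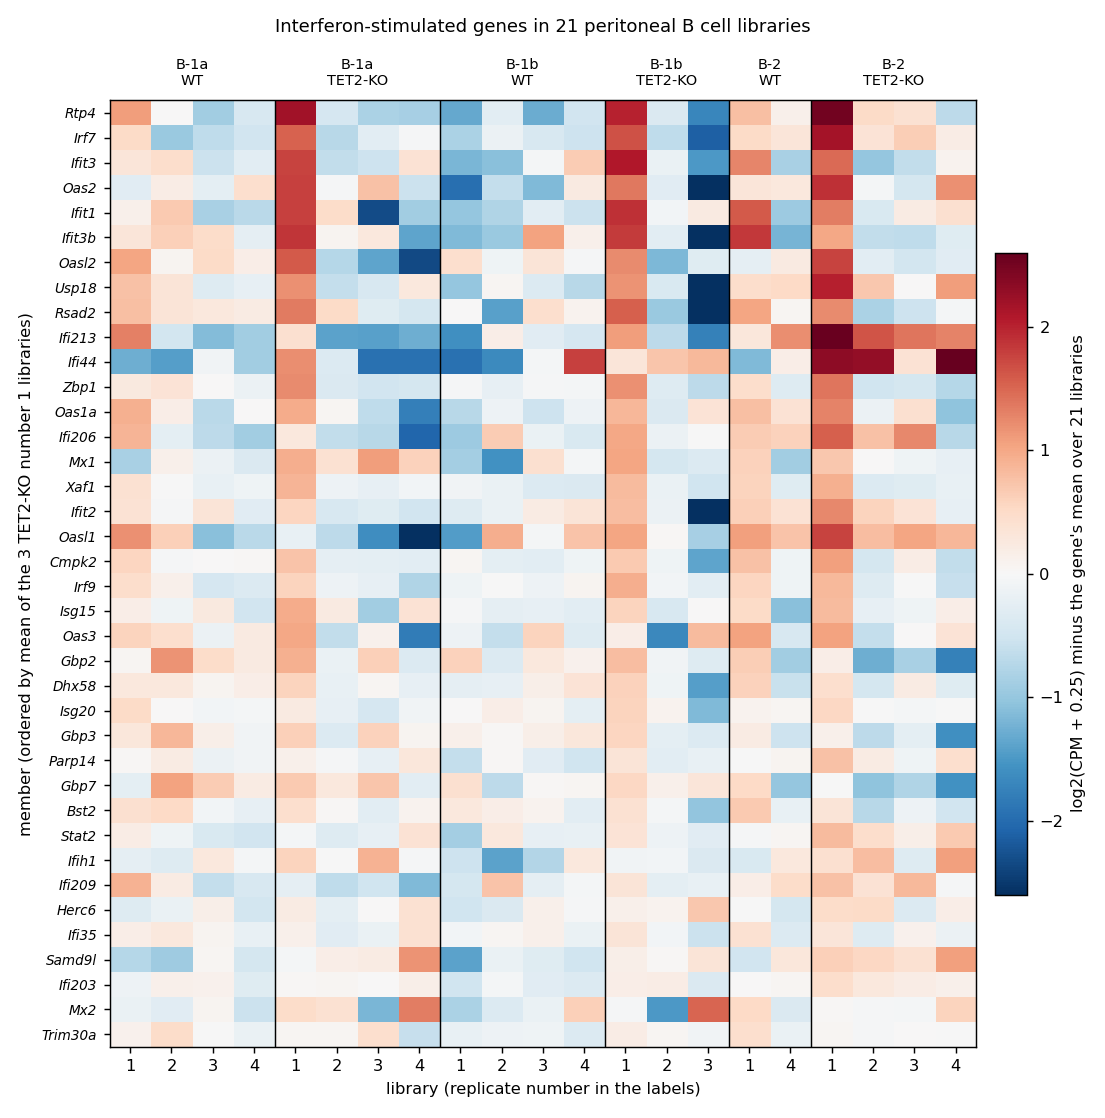
Level of each of the 38 genes (rows) in each of the 21 libraries (columns, grouped by subset and genotype and numbered by replicate), as log2(CPM + 0.25) minus the gene's mean over the 21 libraries (colour). Columns TET2-KO 1 of B-1a, B-1b and B-2 hold the highest TET2-KO level of their subset for 24 of the 38 genes.

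Whether TET2 loss went with another basal level was asked first. No gene of the 38 was called between TET2-KO and WT libraries in any subset. Irf7, the transcription factor that amplifies interferon production, was at 24.4, 8.67, 10.8 and 12.1 CPM in WT B-1a libraries 1 to 4 and at 50.2, 10.3, 14.03 and 16.8 CPM in TET2-KO B-1a libraries 1 to 4. In B-1b cells its values were 9.55, 15.4, 12.7 and 11.6 CPM in WT and 54.3, 10.8 and 3.71 CPM in TET2-KO libraries. In B-2 cells they were 24.3 and 21.3 CPM in WT libraries 1 and 4 and 77.3, 22.1, 26.8 and 19.5 CPM in TET2-KO libraries. TET2-KO number 1 was above all WT libraries in each subset. The remaining TET2-KO values lay within or below the WT range in B-1a and B-1b cells, and in B-2 cells number 3 was above it. The difference over all subsets, with subset in the model, was a log2 fold change of 0.75 ± 0.40 (SE), adjusted p = 0.288 (edgeR). Fits without the libraries labelled TET2-KO 1, here and below, were added after their high values were seen. For genes high in those libraries a lower difference follows from that choice. Leaving out the libraries labelled WT 1 or WT 2 gave 0.89 (adjusted p = 0.999, edgeR), leaving out those labelled TET2-KO 1 gave -0.25 (adjusted p = 0.527, edgeR), and leaving out TET2-KO B-1b 1 alone gave 0.31.

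Isg15, the ubiquitin-like modifier, was also highest in number 1 of each TET2-KO group. It was at 7.16, 5.88, 7.68 and 4.42 CPM in WT and 12.7, 7.49, 3.29 and 8.35 CPM in TET2-KO B-1a libraries. In B-1b cells Isg15 stood at 6.26, 5.38, 5.49 and 5.18 CPM in WT and 9.56, 4.72 and 6.43 CPM in TET2-KO libraries. In B-2 cells its values were 9.04 and 2.88 CPM in WT and 11.4, 5.43, 5.84 and 7.23 CPM in TET2-KO libraries. The groups overlapped in every subset, and beside number 1 the TET2-KO libraries B-1a 4 and B-1b 3 were above the WT range. The log2 fold change of Isg15 over all subsets was 0.31 ± 0.23 (SE), adjusted p = 0.427 (edgeR), 0.55 when libraries labelled WT 1 or WT 2 were left out and 0.0053 when those labelled TET2-KO 1 were.

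Samd9l, an antiviral and growth-restraining factor singled out after its values were seen, came nearest to a genotype difference. It was at 41.5, 36.8, 72.7 and 51.0 CPM in WT and 67.1, 78.6, 80.9 and 158 CPM in TET2-KO B-1a libraries. In B-1b cells the values were 26.4, 61.8, 56.3 and 48.7 CPM in WT and 77.5, 71.7 and 88.1 CPM in TET2-KO libraries, and in B-2 cells 49.6 and 85.5 CPM in WT against 108, 101, 91.6 and 146 CPM in TET2-KO. The groups did not overlap in B-1b and B-2 cells, and in B-1a cells only TET2-KO 1 fell within the WT range. Over all subsets the log2 fold change was 0.79 ± 0.17 (SE), adjusted p = 0.0531 (edgeR), just outside the threshold of 0.05, and it passed with DESeq2. Without the libraries labelled WT 1 and WT 2 it was 0.51 (adjusted p = 0.475, edgeR).

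Mx1, a dynamin-like antiviral GTPase that C57BL/6 mice carry in a truncated form, was at 1.22, 2.63, 2.13 and 1.79 CPM in WT and 4.82, 3.19, 5.34 and 3.75 CPM in TET2-KO B-1a libraries, without overlap. Its log2 fold change was 1.18 ± 0.35 (SE), adjusted p = 0.463 (edgeR) in B-1a cells, and 1.14 when libraries labelled WT 1 or WT 2 were left out. In B-1b cells Mx1 was at 1.18, 0.639, 3.26 and 2.30 CPM in WT and 5.10, 1.67 and 1.80 CPM in TET2-KO libraries, and in B-2 cells at 3.75 and 1.17 CPM and 4.05, 2.39, 2.18 and 2.01 CPM, with overlap in both. Ifi203, a HIN-200 DNA-binding protein, was among the steadiest genes, at 145 to 228 CPM over the WT and 159 to 285 CPM over the TET2-KO libraries, and its log2 fold change over all subsets was 0.20 ± 0.10 (SE), adjusted p = 0.242 (edgeR), with the same value to 2 decimals when libraries labelled WT 1 or WT 2 were left out. Trim30a, a negative regulator of inflammatory signalling, was at 81.3 to 144 CPM in WT and 68.8 to 139.9 CPM in TET2-KO libraries.

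The counts by subset were as follows. In B-1a cells 0 of 37 genes tested passed an adjusted p of 0.05 in edgeR's quasi-likelihood test, 2 had an unadjusted p under 0.05, and DESeq2 called 0, where 0.0503% of all genes passed the adjusted and 7.85% the unadjusted threshold. In B-1b cells 0 of 38 were called by edgeR, 3 had an unadjusted p under 0.05, and DESeq2 called 0, against 0% and 5.48% of all genes. In B-2 cells 0 of 38 were called, 2 had an unadjusted p under 0.05, and DESeq2 called 0, against 0% and 8.86%. With all subsets in a single model edgeR called 0 of 38 and 3 had an unadjusted p under 0.05, against 0.0531% and 20.5% of all genes. DESeq2 called 2 (Ifi203 and Samd9l). Shares of all genes that passed a threshold are those of edgeR, here and below, so none stands beside a DESeq2 count. The difference between the B-1a and the B-1b effect of TET2-KO gave 0 calls by edgeR or DESeq2, and 0 genes of the list had an unadjusted p under 0.05, against 0% and 1.57% of all genes. At these group sizes a difference that missed the threshold is not shown to be absent.

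The median log2 fold change (TET2-KO minus WT) of the 38 genes over all subsets was 0.09, beside 0.13 for all genes tested. Its sign changed with the libraries left out. Those labelled TET2-KO 1 were left out after their high values were seen, and that choice itself lowers the median. Without the libraries labelled TET2-KO 1 it was -0.36, beside 0.12 for all genes, and without those labelled WT 1 and WT 2 it was 0.29, beside 0.0048 for all genes. Within subsets the medians were 0.08 in B-1a (all genes 0.02), 0.35 in B-1b (all genes -0.01) and 0.08 in B-2 cells (all genes 0.18). Without the TET2-KO 1 libraries these turned to -0.27, -0.17 and -0.21, where the medians of all genes are not given. Without those labelled WT 1 and WT 2 they were 0.26, 0.29 and 0.37 (all genes 0.02, 0.0074 and 0.20). In all these fits edgeR called 0 of the 38 genes.

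A tone score summed this up for each library, as the mean over the 38 genes of log2 CPM minus the gene's mean over all libraries. Group means were 0.01 ± 0.24 (SD, n = 4) in WT and -0.07 ± 0.59 (SD, n = 4) in TET2-KO B-1a cells. They were -0.25 ± 0.26 (SD, n = 4) in WT and -0.11 ± 0.87 (SD, n = 3) in TET2-KO B-1b cells, and 0.18 ± 0.42 (SD, n = 2) in WT and 0.30 ± 0.51 (SD, n = 4) in TET2-KO B-2 cells. The differences between genotypes were smaller than the spread within the groups. In every subset the SD was larger among TET2-KO than among WT libraries, a difference that was not tested. The score was 0.80, -0.20, -0.34 and -0.53 in TET2-KO B-1a libraries 1 to 4, 0.83, -0.28 and -0.87 in TET2-KO B-1b libraries 1 to 3, and 1.07, 0.02, 0.05 and 0.04 in TET2-KO B-2 libraries 1 to 4. The WT scores ran from -0.59 to 0.48, so that number 1 of each TET2-KO subset was above every WT library.

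**Figure D2:**
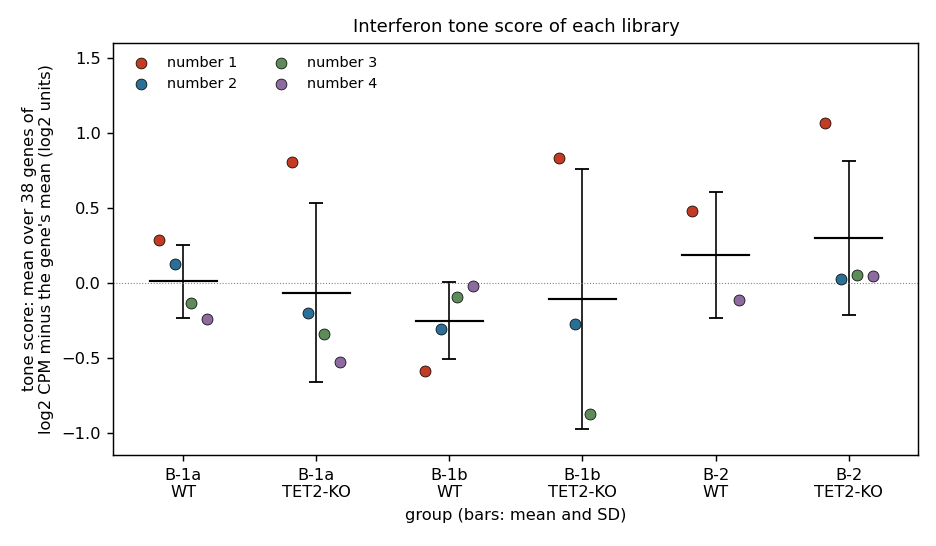
Interferon tone score of each library (points, coloured by replicate number) in the 6 groups of subset and genotype, in log2 units around the mean of the 21 libraries; bars give the group mean and SD. TET2-KO number 1 had the highest score of its group in B-1a (0.80), B-1b (0.83) and B-2 cells (1.07).

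Subset was asked next, and here few genes of the list were called. In the TET2-KO libraries edgeR called 2 of 38 genes between B-1a and B-2 cells, Ifi209, a HIN-200 gene (lower in B-1a), and Gbp7, which encodes a guanylate-binding protein (higher in B-1a), and 9 had an unadjusted p under 0.05. All genes passed these thresholds at 5.82% and 24.7%, so the list held no more calls than the rest of the genes. The median log2 fold change (B-1a minus B-2) of the 38 genes was -0.12, beside -0.05 for all genes. Between B-1b and B-2 cells 0 genes were called by edgeR and 4 had an unadjusted p under 0.05, against 2.15% and 19.6% of all genes. DESeq2 called 2 there (Gbp7 and Ifi213). Between B-1a and B-1b cells 0 were called by edgeR and by DESeq2, and 1 had an unadjusted p under 0.05, against 0.205% and 5.78%. The comparisons with B-2 cells share the same B-2 libraries.

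The HIN-200 genes of the list lie within a single cluster (GRCm39, Ifi206 at chr1:173296051-173318607, Ifi213 at chr1:173393849-173426840, Ifi209 at chr1:173458483-173475494 and Ifi203 at chr1:173747973-173770238) and encode proteins with DNA-binding HIN or pyrin domains. Ifi209 was at 194, 144, 158 and 102.8 CPM in TET2-KO B-1a libraries 1 to 4, at 285, 191 and 198 CPM in TET2-KO B-1b libraries 1 to 3 and at 383, 294, 409.5 and 222 CPM in TET2-KO B-2 libraries 1 to 4. All 4 B-1a values were below all 4 B-2 values, and the B-1b values overlapped both. The log2 fold change of B-1a against B-2 was -1.09 ± 0.24 (SE), adjusted p = 0.013, that of B-1b against B-2 -0.51 ± 0.26 (SE), adjusted p = 0.295, and that of B-1a against B-1b -0.59 ± 0.26 (SE), adjusted p = 0.853 (edgeR). The call of Ifi209 held in each of 11 fits that left out a single library, but not without all 3 TET2-KO 1 libraries (adjusted p = 0.0705) or in a single fit of all 21 libraries (adjusted p = 0.0577).

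Ifi213 and Ifi206 were followed after their values were seen. Ifi213 was at 17.0, 4.60, 4.60 and 5.04 CPM in TET2-KO B-1a, 27.0, 7.77 and 3.54 CPM in TET2-KO B-1b and 76.3, 39.4, 33.5 and 31.0 CPM in TET2-KO B-2 libraries. Every B-2 value was above every B-1 value, number 1 included. The log2 fold change of Ifi213 was -2.50 ± 0.66 (SE), adjusted p = 0.0507 for B-1a and -1.79 ± 0.71 (SE), adjusted p = 0.207 for B-1b against B-2 (edgeR). Ifi206 stood at 69.6, 36.8, 35.2 and 13.7 CPM in TET2-KO B-1a, 116, 52.2 and 57.7 CPM in TET2-KO B-1b and 169.8, 98.8, 138 and 35.1 CPM in TET2-KO B-2 libraries. Here number 4 of B-2 lay among the B-1a values, and the log2 fold change of Ifi206 for B-1a against B-2 was -1.48 ± 0.54 (SE), adjusted p = 0.129 (edgeR).

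The guanylate-binding proteins are GTPases that attack the vacuoles of intracellular pathogens. Their genes also form a cluster (GRCm39, Gbp7 at chr3:142236103-142255910, Gbp3 at chr3:142265787-142278970 and Gbp2 at chr3:142326363-142343769). Gbp7 was at 116, 86.9, 119 and 59.1 CPM in TET2-KO B-1a, 103.4, 78.4 and 88.6 CPM in TET2-KO B-1b and 71.3, 34.5, 41.7 and 23.9 CPM in TET2-KO B-2 libraries. B-1b values did not overlap B-2 values, and of the B-1a libraries number 4 lay below the highest B-2 value. The log2 fold change of Gbp7 was 1.18 ± 0.30 (SE), adjusted p = 0.029 for B-1a and 1.11 ± 0.32 (SE), adjusted p = 0.0883 for B-1b against B-2 (edgeR). The call in B-1a was lost in 6 of 11 fits that left out a single library (without B-1a 1, 2 or 3, or B-2 2, 3 or 4), with adjusted p from 0.00502 to 0.113, and in a single fit of all 21 libraries (adjusted p = 0.0775). Of the exon bases of Gbp7 11.3% overlap another annotated gene, and counting did not use strand.

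Gbp2 was at 114, 52.9, 92.4 and 46.4 CPM in TET2-KO B-1a, 104, 56.2 and 47.1 CPM in TET2-KO B-1b and 67.5, 24.5, 33.4 and 17.6 CPM in TET2-KO B-2 libraries, with a log2 fold change of 1.13 ± 0.42 (SE), adjusted p = 0.132 for B-1a and 0.98 ± 0.45 (SE), adjusted p = 0.253 for B-1b against B-2 (edgeR). Gbp3 was at 169, 87.1, 169 and 116 CPM in TET2-KO B-1a, 163, 92.6 and 86.6 CPM in TET2-KO B-1b and 121, 69.0, 93.0 and 36.7 CPM in the TET2-KO libraries of B-2, and its log2 fold change for B-1a against B-2 was 0.79 ± 0.33 (SE), adjusted p = 0.164 (edgeR). For Gbp2 the subsets overlapped through B-2 number 1 alone, and for Gbp3 through B-2 numbers 1 and 3.

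Among WT libraries no gene of the 38 was called between subsets with all 10 libraries in the fit. Between B-1a and B-2 cells edgeR and DESeq2 called 0, and 0 had an unadjusted p under 0.05, against 0% and 0.984% of all genes. Between B-1b and B-2 cells both tools called 0 and 5 had an unadjusted p under 0.05, against 0% and 0.942%. Between B-1a and B-1b cells both called 0 and 0 had an unadjusted p under 0.05, against 0% and 1.23%. Those fits hold the libraries whose markers stand apart from their labels. Ifi209 was at 426, 265, 148 and 169 CPM in WT B-1a libraries 1 to 4, at 166, 379.7, 192 and 220.3 CPM in WT B-1b libraries 1 to 4 and at 256 and 317 CPM in WT B-2 libraries 1 and 4. The highest values were in the libraries labelled WT B-1a 1 and WT B-1b 2, the same in which Fcer2a was high. Gbp7 was at 59.8, 149, 113 and 83.2 CPM in WT B-1a, 96.0, 44.5, 73.2 and 74.7 CPM in WT B-1b and 102.7 and 35.7 CPM in WT B-2 libraries. It was lowest of the B-1 libraries in those labelled WT B-1b 2 and WT B-1a 1, and the library labelled WT B-2 1, where Fcer2a was low, was at 102.7 CPM.

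Ifi213 followed Ifi209 in these libraries, at 31.6, 8.98, 5.61 and 6.57 CPM in WT B-1a, 3.97, 14.1, 10.2 and 9.16 CPM in WT B-1b and 15.4 and 29.4 CPM in WT B-2. Gbp2 followed Gbp7, at 61.5, 134, 82.9 and 70.4 CPM in WT B-1a, 90.0, 46.8, 71.7 and 64.5 CPM in WT B-1b and 93.5 and 31.9 CPM in WT B-2. Ifi206 was at 107, 48.8, 35.8 and 30.7 CPM in WT B-1a, 29.8, 92.0, 51.3 and 44.2 CPM in WT B-1b and 91.3 and 88.4 CPM in WT B-2. Gbp3 was at 135, 203, 123 and 104 CPM in WT B-1a, 122, 113, 123 and 136 CPM in WT B-1b and 128 and 76.1 CPM in WT B-2. With all 10 libraries the log2 fold change of B-1a against B-2 in WT was -0.23 ± 0.42 (SE), adjusted p = 1 for Ifi209, -0.82 ± 0.68 (SE), adjusted p = 1 for Ifi213, 0.53 ± 0.47 (SE), adjusted p = 1 for Gbp7 and 0.46 ± 0.44 (SE), adjusted p = 1 for Gbp2 (edgeR).

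Without the libraries labelled WT 1 and WT 2, edgeR called 9 of the 38 genes between WT B-1a and B-2 cells, 4 higher and 5 lower in B-1a, and 7.16% of all genes. Between WT B-1b and B-2 cells 8 were called, 4 higher and 4 lower, and 5.53% of all genes. The calls shared by both were Gbp2, Gbp3, Gbp7, Ifi206, Ifi209, Ifi213 and Dhx58, the last a regulator of RNA sensing outside both families. The remaining calls were Irf7 and Oasl1 in the first comparison and Samd9l in the second. The log2 fold changes of B-1a against B-2 then were -0.98 for Ifi209 (adjusted p = 0.00021), -2.24 for Ifi213 (adjusted p = 6.24e-07), -1.39 for Ifi206 (adjusted p = 3.19e-06), 1.49 for Gbp7 (adjusted p = 8.38e-06), 1.29 for Gbp2 (adjusted p = 2.82e-05) and 0.60 for Gbp3 (adjusted p = 0.0337), all from edgeR. This fit holds a single WT B-2 library, number 4, which is assumed to vary like the others. Both genes called between B-1a and B-2 cells in TET2-KO libraries, Gbp7 and Ifi209, are among the 9.

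**Figure D3:**
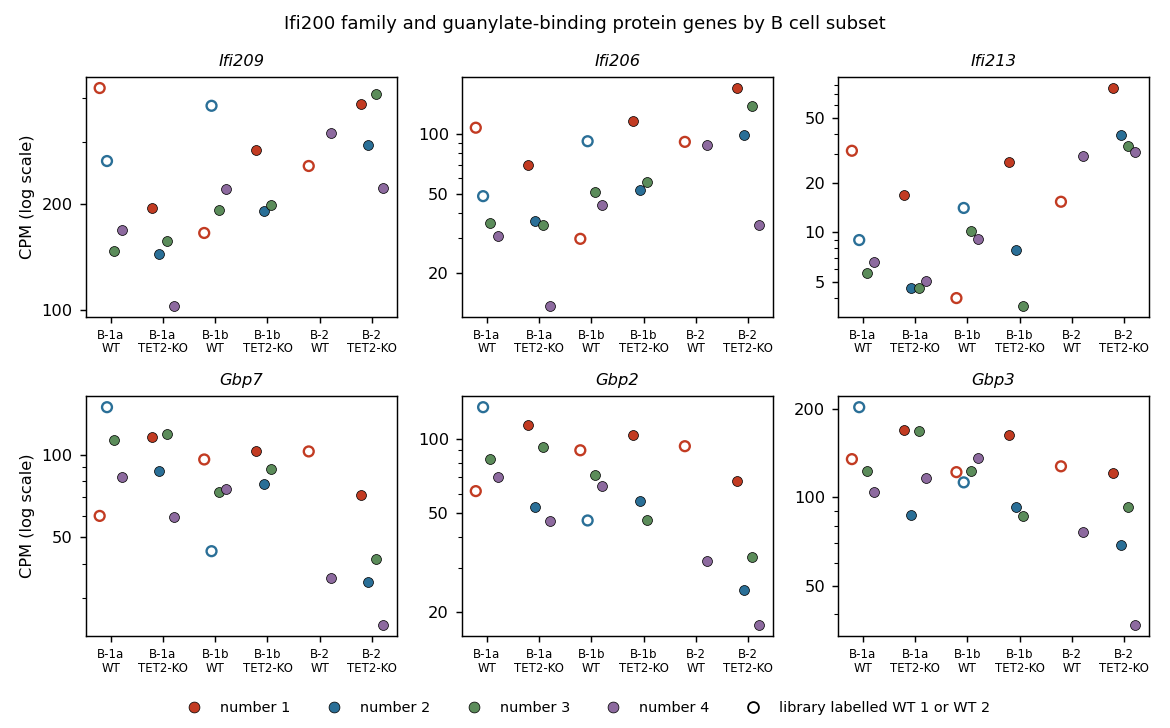
CPM (log scale) of the HIN-200 and guanylate-binding genes in each library, by subset and genotype; colours give the replicate number and open rings mark the libraries labelled WT 1 or WT 2. In TET2-KO libraries Ifi209 and Ifi213 have every B-1a point below every B-2 point, and Gbp7 is called higher in B-1a.

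The pattern that covered most genes followed neither genotype nor subset. In all 3 subsets the TET2-KO library with replicate number 1 held the highest level of the TET2-KO libraries for 24 of the 38 genes, where 4.13% of all genes tested did so. Numbers 2 and 3 were the highest in every subset for 0 of the 38, against 2.05% and 4.34% of all genes, and B-1b has no TET2-KO number 4. The 24 were Bst2, Cmpk2, Dhx58, Gbp2, Gbp3, Ifi206, Ifi213, Ifit1, Ifit2, Ifit3, Ifit3b, Irf7, Irf9, Isg15, Isg20, Oas1a, Oas2, Oasl1, Oasl2, Rsad2, Rtp4, Usp18, Xaf1 and Zbp1. For these the ratio of number 1 to the mean of the other TET2-KO libraries of its subset ran from 1.36 to 8.12 (median 2.75) in B-1a, from 1.71 to 13.98 (median 2.96) in B-1b and from 1.47 to 5.14 (median 2.49) in B-2 cells. These genes were picked because number 1 was highest, so each ratio had to be above 1. The other genes of the list are left out of the medians, and no ratio is given for all genes that met the same rule. The B-1b mean rests on numbers 2 and 3 alone. The highest B-1b ratio was that of Rsad2, at 6.69 CPM in number 1, 0.956 CPM in number 2 and 0 CPM in number 3. Ifit3b, Oas2 and Usp18, with B-1b ratios of 10.2, 7.23 and 6.15, also had a count of 0 in number 3. The ratio was over 2 in every subset for 14 of the 24 genes. The numbers were compared after these values had been seen.

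Zbp1, a sensor of left-handed nucleic acid that triggers cell death, was at 83.6, 27.1, 24.9 and 25.7 CPM in TET2-KO B-1a libraries 1 to 4. In B-1b cells the TET2-KO values of Zbp1 were 80.6, 28.0 and 21.9 CPM and in B-2 cells 92.7, 24.7, 25.6 and 21.1 CPM, against 28.0 to 48.6 CPM over the 10 WT libraries. The 3 number 1 values were the highest of the 21, and the other 8 TET2-KO values lay below all 10 WT values, though the gap to the lowest WT value (28.0 CPM) was narrow. Rtp4, a receptor chaperone with antiviral activity, was at 93.6, 15.1, 11.5 and 11.2 CPM in TET2-KO B-1a, 82.2, 15.8 and 6.10 CPM in TET2-KO B-1b and 118, 29.1, 27.1 and 12.7 CPM in TET2-KO B-2 libraries, against 7.999 to 43.6 CPM in WT. Of its exon bases 13.9% overlap another annotated gene. Ifit3, an RNA-binding antiviral effector, was at 27.5, 4.97, 5.40 and 10.3 CPM in TET2-KO B-1a, 34.1, 6.99 and 2.67 CPM in TET2-KO B-1b and 22.3, 3.84, 4.96 and 8.496 CPM in TET2-KO B-2 libraries, against 3.35 to 19.5 CPM in WT.

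Ifit3b, its near copy, was at 5.32, 1.35, 1.59 and 0.336 CPM, 5.16, 1.02 and 0 CPM and 2.82, 0.724, 0.709 and 0.969 CPM in the same TET2-KO groups. The transcripts of Ifit3 and Ifit3b are identical at 1991 of 2042 aligned bases (97.5%), and reads that map to several places were not counted, so how reads divide between them is uncertain. Oasl2, a ubiquitin-like relative of the oligoadenylate synthetases, stood at 29.2, 5.59, 3.52 and 1.68 CPM in TET2-KO B-1a, 22.5, 4.12 and 7.58 CPM in TET2-KO B-1b and 33.0, 7.89, 6.76 and 7.68 CPM in TET2-KO B-2 libraries, against 8.09 to 19.5 CPM in WT. As with Zbp1, the 8 TET2-KO libraries of other numbers were below all 10 WT libraries and number 1 was above them.

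The genes of the signalling core differed in how far they took part. Irf7, with the values given above, had a ratio of number 1 to the other TET2-KO libraries of 3.66 in B-1a, 7.51 in B-1b and 3.39 in B-2 cells. Irf9, the DNA-binding part of ISGF3, was at 162, 99.0, 94.0 and 62.8 CPM in TET2-KO B-1a, 208, 103.4 and 89.6 CPM in TET2-KO B-1b and 197, 85.8, 108 and 71.9 CPM in TET2-KO B-2 libraries, with ratios of 1.90, 2.16 and 2.22. Usp18, which removes ISG15 from proteins and restrains the receptor, was at 12.4, 3.38, 3.98 and 6.497 CPM in TET2-KO B-1a, 12.3, 4.00 and 0 CPM in TET2-KO B-1b and 22.4, 8.90, 5.40 and 11.7 CPM in TET2-KO B-2 libraries. Stat2 was at 35.2, 28.8, 31.6 and 47.6 CPM in TET2-KO B-1a, 46.5, 33.3 and 29.6 CPM in TET2-KO B-1b and 64.7, 50.2, 40.4 and 58.5 CPM in the TET2-KO libraries of B-2, and here number 4 of B-1a was above number 1. Bst2 was at 108, 81.3, 65.7 and 85.3 CPM, 105.3, 77.5 and 39.1 CPM and 100.4, 48.1, 73.1 and 56.9 CPM in the same groups, within the WT span of 66.3 to 128 CPM for number 1. Trim30a (ratios 1.02, 1.15 and 1.04), Ifi203 (0.96, 1.18 and 1.203) and Samd9l (0.63, 0.97 and 0.96) had no ratio above 1.203 in any subset.

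**Figure D4:**
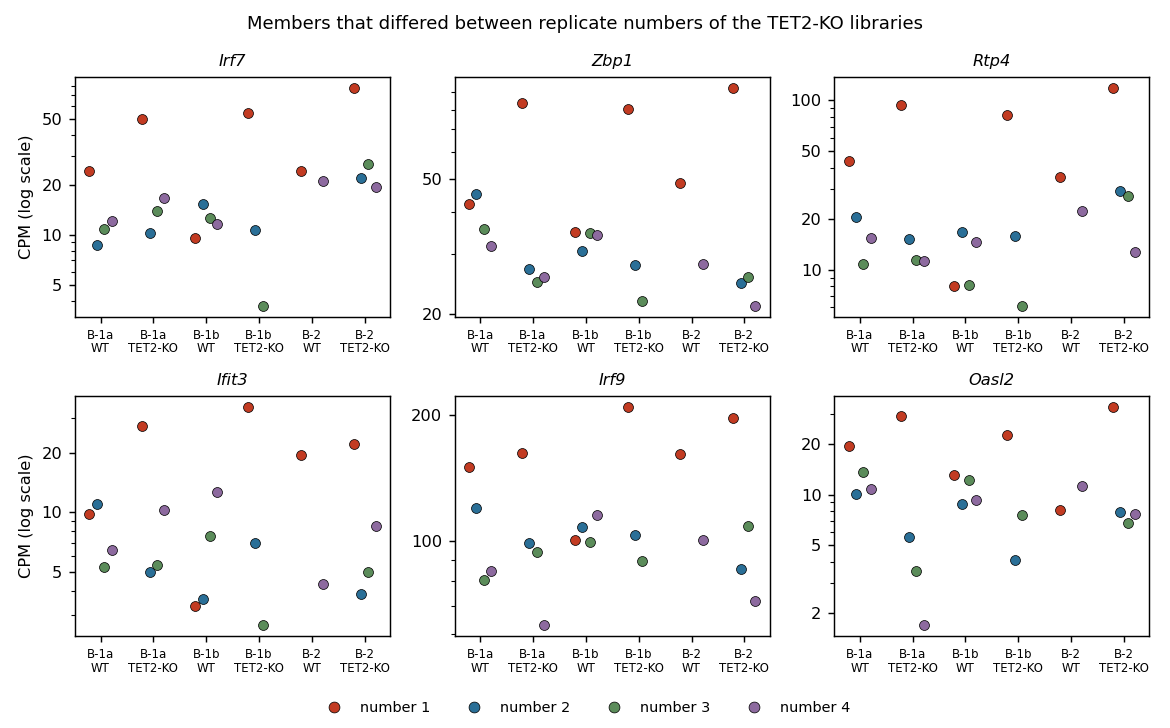
CPM (log scale) of members of the signalling core and antiviral genes in each library, by subset and genotype, coloured by replicate number. Number 1 of the TET2-KO libraries is the highest point of its group in all 3 subsets for Irf7, Irf9, Zbp1, Rtp4, Ifit3 and Oasl2.

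An F test of the replicate number beside subset over the 11 TET2-KO libraries, which treats all numbers alike, called 13 of the 38 genes (edgeR, adjusted over all genes), and 24 had an unadjusted p under 0.05. Of all genes 5.48% passed the adjusted and 18.9% the unadjusted threshold. The 13 were Zbp1 (adjusted p = 0.000196), Rtp4 (0.000313), Ifi206 (0.000728), Ifit3 (0.00151), Xaf1 (0.00155), Irf9 (0.0022), Oasl2 (0.00436), Ifi213 (0.00513), Oas1a (0.00596), Irf7 (0.00761), Gbp2 (0.00767), Gbp7 (0.0201) and Ifi209 (0.0364). The test was chosen after the values were seen and is no independent evidence of the pattern. Between 8 (without TET2-KO B-1a 1) and 19 (without TET2-KO B-1b 3) were called when a single library was left out, and 7 in all 11 such fits: Ifi206, Ifit3, Irf7, Irf9, Rtp4, Xaf1 and Zbp1. Without all 3 number 1 libraries only Ifi206 was called. Among the 10 WT libraries the same test called 0 of 38 by edgeR and 4 had an unadjusted p under 0.05, against 0% and 19.5% of all genes. DESeq2 called 1 (Bst2). Without the library labelled WT B-1a 1 edgeR called 3 there, Ifi206, Ifi209 and Ifi213. For the fits that left out libraries the share of all genes called is not given. Their counts cannot be told from fewer or more calls over all genes.

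For 11 of the 38 genes the lowest of the 3 TET2-KO number 1 libraries was above each of the other 18 libraries, WT libraries included, where 0.48% of all genes tested showed this. These were Ifit3, Irf7, Irf9, Isg15, Oas2, Oasl2, Rsad2, Rtp4, Usp18, Xaf1 and Zbp1. They include the transcription factors Irf7 and Irf9, the ISG15 modifier and its protease, and the antiviral effectors viperin (Rsad2) and Oas2. In 6 of the 11 genes called by replicate number that have a promoter in the table, and in 11 of the 19 not called, the ISRE core was present.

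The share of each gene's spread (sum of squares of log2 CPM) that went with subset and with replicate number describes the same data without a test. Among TET2-KO libraries the median over the 38 genes was 11.97% with subset, 54.0% with number and 21.97% with neither, against 27.7%, 29.6% and 30.1% over all genes tested. Number had the larger share in 29 of the 38, and among WT libraries in 25 of the 38. This count is not given for all genes. Number has 4 levels against 3 of subset, which can give it the larger share. Among TET2-KO libraries the share of number reached 98.3% for Zbp1, 97.2% for Xaf1, 91.9% for Ifit3, 89.7% for Irf9 and 89.2% for Rtp4. Subset had the larger share for Ifi209 (69.9%), Ifi213 (68.6%), Ifi44 (56.6%), Gbp7 (55.9%) and 5 others. Among WT libraries the medians were 16.9% with subset and 29.9% with number, against 10.3% and 48.8% over all genes. Subset and number were not fully crossed, because B-1b lacks TET2-KO number 4 and B-2 lacks WT numbers 2 and 3.

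**Figure D5:**
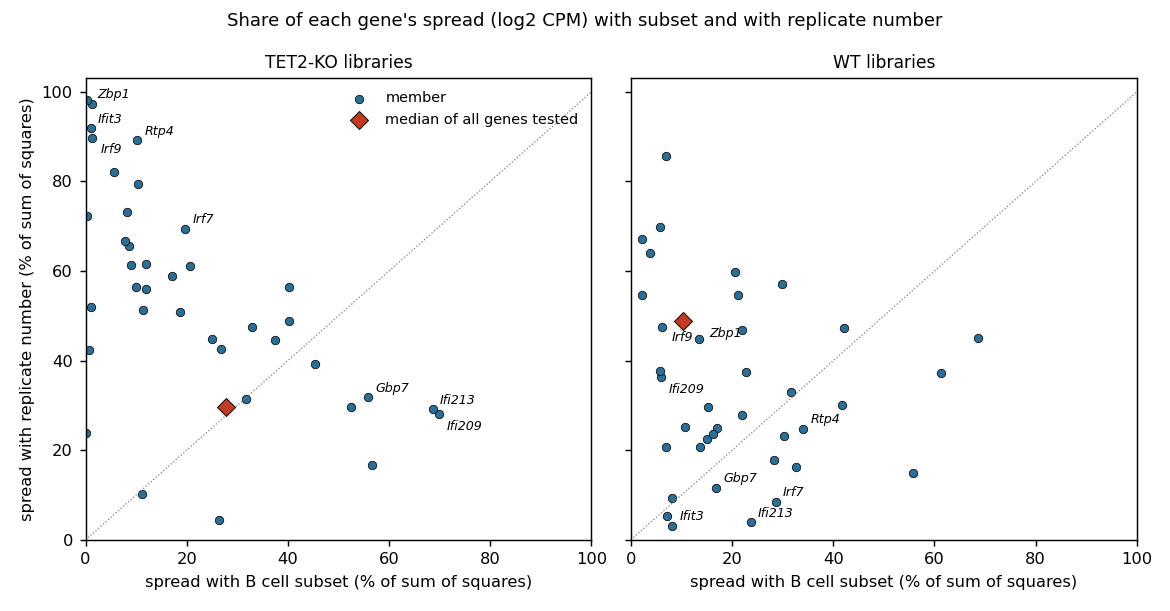
Share of each gene's spread in log2 CPM (percent of the sum of squares) that went with B cell subset (horizontal axis) and with replicate number (vertical axis), for TET2-KO and WT libraries; blue points are the 38 genes and the red diamond is the median of all genes tested. Among TET2-KO libraries 29 of 38 points lie above the diagonal, with Zbp1 at 98.3% for number, and among WT libraries 25 of 38 do.

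Other genes of the pathway were examined by lists of ligands, receptors, signal transducers, nucleic acid sensors and further interferon-induced genes, of which 155 of 158 were matched. Of the 21 interferon genes 0 passed the filter on low counts in any fit. Their summed counts ran from 0 to 17 per library, and were 5 in TET2-KO B-1a 1, 4 in TET2-KO B-1b 1 and 4 in TET2-KO B-2 1, so no interferon message above this level was detectable at this depth. In no list did edgeR call a gene between TET2-KO and WT libraries, in any subset or over all subsets. Between TET2-KO B-1a and B-2 libraries edgeR called 0 of 9 receptors and kinases, 1 of 14 signal transducers (Irf8, lower in B-1a), 2 of 15 nucleic acid sensing genes (Sting1 and Ticam1, 1 higher and 1 lower) and 8 of 100 further interferon-induced genes (5 higher and 3 lower), where 5.82% of all genes were called. Between TET2-KO B-1b and B-2 libraries it called 1 of 15 nucleic acid sensing genes (Ticam1, higher in B-1b) and 3 of 100 further interferon-induced genes (1 higher and 2 lower), where 2.15% of all genes were called. By replicate number among TET2-KO libraries, 32 of 100 further interferon-induced genes were called by edgeR, where 5.48% of all genes were, and for 30 of these number 1 was the highest in every subset. The smallest adjusted p were those of Tgtp2 (2.4e-05), Lgals3bp (0.000136), Ifitm3 (0.000215) and Irgm1 (0.000215). Tgtp2, an immunity-related GTPase, was at 98.8 CPM in number 1 against 4.2 to 5.28 CPM in the other TET2-KO B-1a libraries, at 129 against 4.25 to 7.29 CPM in B-1b and at 208 against 14.4 to 19.9 CPM in B-2 cells.

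Of 14 signal transducers and regulators 5 were called by replicate number (edgeR), among them Irf1, a transcription factor (adjusted p = 0.000589), and the feedback inhibitors Socs1 (0.00796) and Socs3 (0.0141), each of these 3 highest in number 1 of every subset. Irf1 was at 301.5 CPM in TET2-KO B-1a 1 against 92.1 to 127 CPM in the other TET2-KO B-1a libraries, at 357 against 94.8 to 124 CPM in B-1b and at 381.5 against 84.3 to 145 CPM in B-2 cells. Of 9 receptors and kinases 1 was called, Jak2, and of 15 nucleic acid sensing genes 2, Mavs and Ticam1, none of them highest in number 1 throughout. Some genes stand in more than 1 list.

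Markers of other cells moved with the TET2-KO 1 libraries as well. The summed level of 14 macrophage markers was 29090 CPM in TET2-KO B-1a 1 (others 6163 to 33420 CPM), 14730 CPM in B-1b 1 (others 7458 to 17620 CPM) and 22370 CPM in B-2 1 (others 5583 to 23610 CPM). The sum was thus not the highest of its group in any subset. Lyz2 alone, at 21696, 10533 and 16229 CPM in these number 1 libraries, made up most of it. By contrast 10 of the 14 single markers, Adgre1, Csf1r and Marco among them, were highest in number 1 of every subset. Of all genes tested 4.13% were. Fcgr1 is both a macrophage marker and an interferon-induced gene. Among WT B-1a libraries the summed macrophage level was 35223, 13103, 30039 and 32258 CPM in numbers 1 to 4. Their tone scores were 0.29, 0.13, -0.13 and -0.24. In WT B-1b libraries 1 to 4 the sums were 18924, 18133, 16291 and 14400 CPM, with scores of -0.59, -0.31, -0.09 and -0.02. WT B-2 libraries 1 and 4 had 10844 and 29190 CPM, with scores of 0.48 and -0.11. The WT numbers 1 and 2 are the libraries whose markers stand apart from their labels. The other TET2-KO libraries, whose scores stand above, were at 33416, 14930 and 6163 CPM in B-1a cells. They were at 17621 and 7458 CPM in B-1b and at 23605, 18992 and 5583 CPM in B-2 cells. Sums that were highest in number 1 of every subset were those of NK cell markers (34.8 CPM in B-1a, 20.7 CPM in B-1b and 31.3 CPM in B-2 cells, against 4.76 to 17.8 CPM in the other TET2-KO libraries), with 2 of 8 single markers highest throughout, of monocyte markers (53.9, 39.8 and 56.1 CPM, against 21.1 to 46.8 CPM), with 2 of 6, and of 7 erythroid markers (29.9, 18.9 and 32.6 CPM, against 0.327 to 30.1 CPM), with 2 of 7. The summed B-1 cell markers were also highest there (1132, 946 and 265 CPM). Sums of pan-B, B-2, T cell, neutrophil, plasma cell, conventional and plasmacytoid dendritic cell markers were not. Nor was the sum of 8 proliferation markers, though 3 of them (Ccna2, Cdk1 and Birc5) were highest in number 1 of every subset. The part of other cells or of proliferation in the levels of the interferon-stimulated genes was not tested.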

How the data were processed

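Bulk RNA-seq of 21 libraries of sorted peritoneal B cells was analysed from the count files as deposited. The authors trimmed read pairs (fastp, default settings), used STAR for alignment to the GRCm39 genome, and made the whole-number counts per gene with featureCounts 1.6.1 on the GENCODE M32 annotation. Per the file headers fragments were counted without regard to strand, and fragments with several map positions or overlapping more than 1 gene were not counted. Versions of fastp and STAR are not given in the sources used here. The study's methods and the labels describe the library preparation differently (full-length cDNA made from total RNA, or poly-A selection and random primers). No other normalization had been applied.

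Symbols for 56310 of 56953 genes were taken from a GENCODE M39 annotation. Groups and replicate numbers were taken from the labels. The 38 genes, the other lists and the tests were chosen with earlier results of these data known. Genes were tested with edgeR 4.0.16 (quasi-likelihood test, robust, TMM scaling, filterByExpr by group) in R 4.3.3, over all genes, and called at a Benjamini-Hochberg adjusted p under 0.05. Genotypes were compared within each subset and over all subsets with subset in the model, and subsets within each genotype. The test of replicate number was added after the values had been seen. DESeq2 1.42.0, which the authors used, was an alternative, beside other filters, scalings, a replicate block and fits without single libraries or the libraries labelled WT 1, WT 2 or TET2-KO 1. The steps were tested on simulated data. Genes given per library were fixed as Irf7, Irf9, Stat2, Usp18, Isg15, Ifit3, Ifit3b, Oasl2, Mx1, Bst2, Ifi203, Gbp2, Trim30a and Zbp1, with every gene called between genotypes and at most 6 called genes in each subset comparison, and with at most 4 called pathway genes per list. Ifi206, Ifi213, Gbp3, Rtp4 and Samd9l were added after their values were seen. Log2 CPM in the tone score used a prior count of 2. Intervals and limits for a count of 0 cover counting error only, since no molecular identifiers were used. No column of the files was left out.

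Whether numbers pair libraries was checked by the correlation of deviations from group means over genes. Among TET2-KO B-1a and B-1b libraries it was 0.12 to 0.22 over 3 pairs, and among WT B-1a and B-1b libraries 0.17 to 0.54 over 4 pairs, every pair above 0.1. The fits given have no block, and with it the B-1a against B-1b comparisons had 0 calls of the 38 genes in either genotype, as without it. Only same-numbered libraries were correlated, so these values have no baseline of differently numbered pairs. Among WT libraries numbers 1 and 2 also differed from numbers 3 and 4, as given above. The values therefore do not show that a number pairs libraries, and no label states it. For the other groups not every pair was above 0.1, or there were 2 pairs only.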

Additional observations from a re-analysis of the deposited data

Results flagged for a closer look

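In groups of 4 libraries the tone score and the log2 CPM of the genes given per library by the naming rule (Ifi209 and Gbp7 included, the genes added later not) were searched for a library that stood apart by Dixon's ratio, the gap to the nearest library over the range of the group. At the 95% level chance alone marks about 1 group in 20, and 5 of 68 were marked. In 4 of the 5 the library was TET2-KO 1. Zbp1 stood apart in TET2-KO B-1a (ratio 0.929) and TET2-KO B-2 libraries (0.869), Oasl2 in TET2-KO B-2 libraries (0.903) and the tone score in TET2-KO B-2 libraries (0.974), each with number 1 highest. In WT B-1b libraries Zbp1 was marked because number 2 was lowest (0.874), at 30.6 CPM against 34.3 to 34.9 CPM. The part of any technical or biological difference of these libraries was not tested.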

How the results depend on the processing

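Of 104 counts of genes called, each under another setting, 83 stayed within 1.5 times the main count and 21 moved. Between B-1a and B-2 TET2-KO libraries the main count of 2 became 6 with DESeq2, 5 without a filter on low counts and 0 in a single fit of all 21 libraries, and 1 to 5 when a single library was left out (5 without B-1a 1, and 1 without B-1a 2, B-1a 3 or B-2 2). Between B-1b and B-2 TET2-KO libraries the 0 became 2 with DESeq2, 1 without the filter, 1 without the TET2-KO 1 libraries and 0 to 1 without a single library. For TET2-KO against WT the 0 became 2 (Ifi209 and Samd9l) in B-1a cells without the filter, and over all subsets 2 with DESeq2, 1 with at least 10 counts in every library and 0 to 1 without a single library (Samd9l without WT B-1a 3, WT B-2 4 or TET2-KO B-2 3). Among WT libraries 0 became 1 between B-1a and B-1b and 2 between B-1b and B-2 without the filter, and 9, 8 and 1 for B-1a against B-2, B-1b against B-2 and B-1a against B-1b without those labelled WT 1 and WT 2. The 13 called by replicate number among TET2-KO libraries became 21 with DESeq2, 23 without the filter, 8 to 19 without a single library and 1 without the TET2-KO 1 libraries. The 0 among WT libraries became 1 with DESeq2, 6 without the filter and 0 to 3 without a single library. The cause was not tested, beyond the fewer libraries of some fits. For most of these settings the share of all genes called is not given. A higher count there cannot be told from more calls over all genes.

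With the replicate number as a block, 8 genes were called between B-1a and B-2 TET2-KO libraries and 5 between B-1b and B-2, all 5 among the 8. Correlations of same-numbered libraries ran from -0.04 to 0.46 and from 0.0076 to 0.31 in these groups over all genes, so that not every pair was above 0.1, and no label says what a shared number stands for. The block changed no other count. The share of all genes called with it is not given here, so the higher counts cannot be told from more calls over all genes. Zbp1 over all subsets turned from 0.17 to -0.087 with the block.

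Of 202 fold changes under other settings 4 turned sign outside the fits that leave out a single library. Irf7, Rtp4 and Zbp1 did so without the TET2-KO 1 libraries, at -0.25, -0.47 and -0.58 (TET2-KO against WT, all subsets). That setting was added after the high values of these libraries were seen. Leaving out a single library gave -0.074 to 0.25 for Zbp1 in that comparison, and -0.023 to 1.44 for Gbp7 and -0.10 to 1.39 for Gbp2 between WT B-1a and B-2 libraries, where B-2 has 2 libraries and the fit without WT B-2 4 turned both. All 42 tone scores and the motif share moved by less than their spread or interval. For 21 of these scores this was fixed in advance. Their setting drops genes under 1 CPM on average, and 0 genes of the list were. The 2 WT B-2 libraries and the genes under 5 CPM limit what could be detected.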
